A study of Mus musculus with 28 samples.

Results

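The 34 genes described here are expressed by microglia, the resident macrophages of the brain, or belong to the complement system. They were chosen by symbol, as genes of the homeostatic microglial programme, genes shared by all myeloid cells, the C1q genes and genes linked to microglial activation, with C3 and C4b among the last. All 34 symbols were found among the 23309 gene symbols of the files. Of these, 32 had a mean FPKM of at least 1 over all libraries and were tested, among 12760 genes tested in all. FPKM counts sequenced fragments relative to the length of the transcript and to the total of mapped fragments, and the FPKM of a gene is the sum over its RefSeq transcripts.

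The samples were 28 striata of C57BL/6J mice, each library from 1 mouse. Of these mice, 16 had been given haloperidol, an antipsychotic that blocks dopamine receptors, chronically, and 12 had been given placebo. The labels divide the libraries into batch 1, with 8 of each treatment, and batch 2, with 8 from haloperidol and 4 from placebo mice. All mice came from a colony bred from founders of the same supplier. The labels name no dose, duration, route, age or sex, and do not say in what the batches were apart.

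Microglia keep their identity through signals from neighbouring cells, chief among them the growth factors that act on Csf1r and the transforming growth factor beta that maintains the homeostatic programme. In that state they express surface receptors such as P2ry12, Cx3cr1 and Tmem119, which commonly fall when the cells become activated, while phagocytic and lysosomal genes such as Cd68 rise. Complement C1q, assembled from the products of C1qa, C1qb and C1qc, starts the classical complement cascade, which runs on through C4 and C3 and can tag synapses for removal by microglia. In whole tissue such as this, fewer cells of a type and less RNA per cell cannot be told apart.

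The promoters of 3 genes are shown, from pairs whose transcripts varied together between libraries, C1qb with its neighbour C1qc and P2ry12 with Cx3cr1. Those of C1qa and Cx3cr1, which also belong to such pairs, are not shown. Each is the 250 bases before a RefSeq start site in GRCm38.p6, written 5′ to 3′ on the gene's strand, and capitals mark AGGAAGT or its reverse complement ACTTCCT, a core of the ETS kind that the myeloid factor PU.1 also binds. C1qb lies at chr4:136886201-136886450, C1qc at chr4:136892915-136893164 and P2ry12 at chr3:59262986-59263235, all on the minus strand.
C1qb: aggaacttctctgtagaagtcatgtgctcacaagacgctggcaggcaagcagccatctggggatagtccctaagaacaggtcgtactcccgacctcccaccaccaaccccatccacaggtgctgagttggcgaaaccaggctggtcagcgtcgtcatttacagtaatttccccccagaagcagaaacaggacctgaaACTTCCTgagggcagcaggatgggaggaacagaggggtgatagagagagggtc
C1qc: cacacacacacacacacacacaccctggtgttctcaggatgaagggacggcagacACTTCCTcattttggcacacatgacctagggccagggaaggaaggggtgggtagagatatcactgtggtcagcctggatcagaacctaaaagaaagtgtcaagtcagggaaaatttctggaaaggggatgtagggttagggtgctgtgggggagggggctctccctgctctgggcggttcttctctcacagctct
P2ry12: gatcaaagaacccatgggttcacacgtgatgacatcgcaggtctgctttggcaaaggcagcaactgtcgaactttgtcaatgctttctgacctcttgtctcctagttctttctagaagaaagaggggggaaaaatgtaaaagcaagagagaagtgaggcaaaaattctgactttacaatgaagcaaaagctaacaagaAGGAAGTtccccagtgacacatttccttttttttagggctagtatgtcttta
The match lay 53 bases before the start in C1qb, 195 in C1qc and 52 in P2ry12. RefSeq windows of 250 bases were found for 24 of the 34 genes, 29 windows in all. AGGAAGT was present on either strand in 8 of the 29 windows (27.6%), of 7 genes (C1qb, C1qc, Fcrls, Lyz2, P2ry12, Ptprc and Sall1), against 7.69% of all 32851 windows. The shorter spelling GGAAGT, which AGGAAGT contains, was in 34.5% of the windows against 19.7% of all. GAGGAA, which overlaps AGGAAGT by all but its first base, was in 51.7% against 23.3%. The longest spelling, GAGGAAGT, was in 1 window, that of C1qc (3.45% against 2.44%). All 3 genes shown are among the 7 with AGGAAGT, and C1qa and Cx3cr1 are not. The 3 promoters therefore do not stand for the genes that varied together. A match describes the letters in the window and says nothing of binding.

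Every library carried the RNA of striatum, with Ppp1r1b between 652 and 1427 and Penk between 541 and 1375 scaled FPKM. Scaled FPKM are FPKM divided by a median-of-ratios factor of the library. The RNA integrity number given in the labels ranged from 7.08 to 8.97 and averaged 7.75 in batch 1 and 8.33 in batch 2. The sum of all FPKM of a library ranged from 380952 to 575171, and the depth of the libraries relative to each other from 0.433 to 1.73. Read counts are not among the values, so no counting interval was computed. The 34 genes were above 0 in all 28 libraries. Of 15 genes of border macrophages and monocytes, 6 averaged 1 FPKM or more (Cbr2, Pf4, Stab1, Colec12, Dab2 and Maf), with Colec12 highest at 4.05. Ccr2, which defines infiltrating monocytes, averaged 0.0502 FPKM and was at 0 in 6 libraries, and Ly6c2 was at 0 in 23 libraries. Of 10 neutrophil genes, S100a8 averaged 1.03 FPKM and S100a9 reached 6.19, Cxcr2 was above 0 in all 28 libraries, and Camp and Elane were at 0 in 26 libraries each.

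C1qb and C1qa were the most abundant of the 34 genes in placebo libraries, at 84.4 ± 37.2 and 74.9 ± 32.4 scaled FPKM (SD, n = 12). The lysosomal protease cathepsin S, Ctss, followed at 65.3 ± 7.55, then C1qc at 58.1 ± 14.1 and Tyrobp, the signalling adaptor of Trem2, at 51.6 ± 21.6. These 5 genes were above 50 scaled FPKM, 18 genes lay between 5 and 50, and 11 lay under 5. The largest break came after Tyrobp, 25.3 above Csf1r at 26.4 ± 2.80. In that order, 30 of 33 gaps between neighbours were smaller than the larger SD of the pair. C3, the central complement component, and Ptprc, the pan-leukocyte phosphatase CD45, ended the order at 0.257 ± 0.186 and 0.418 ± 0.193 and were not tested. C4b measured 4.68 ± 1.53. Its near-identical copy C4a averaged 0.510 FPKM, and the labels do not say how reads shared by the copies were assigned, so its level is uncertain. The same holds for Lyz2 and its copy Lyz1.

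The genes differed in how far libraries of 1 group lay apart. Ctss ran from 57.9 to 78.6 scaled FPKM in the 8 placebo libraries of batch 1 and Csf1r from 25.02 to 30.7. In the same libraries C1qa ran from 42.9 to 136, Trem2 from 9.998 to 28.9 and Aif1, which encodes the microglial marker IBA1, from 6.45 to 24.2. The residual SD on the log2 scale, after treatment and batch, was 0.11 for Csf1r and 0.13 for Ctss. It was 0.51 for C1qa, 0.50 for Tyrobp, 0.57 for Aif1 and 0.64 for Cd52, a small surface glycoprotein of leukocytes, where the median over all tested genes was 0.27. The plot of levels shows these narrow and wide rows side by side.

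**Figure D1:**
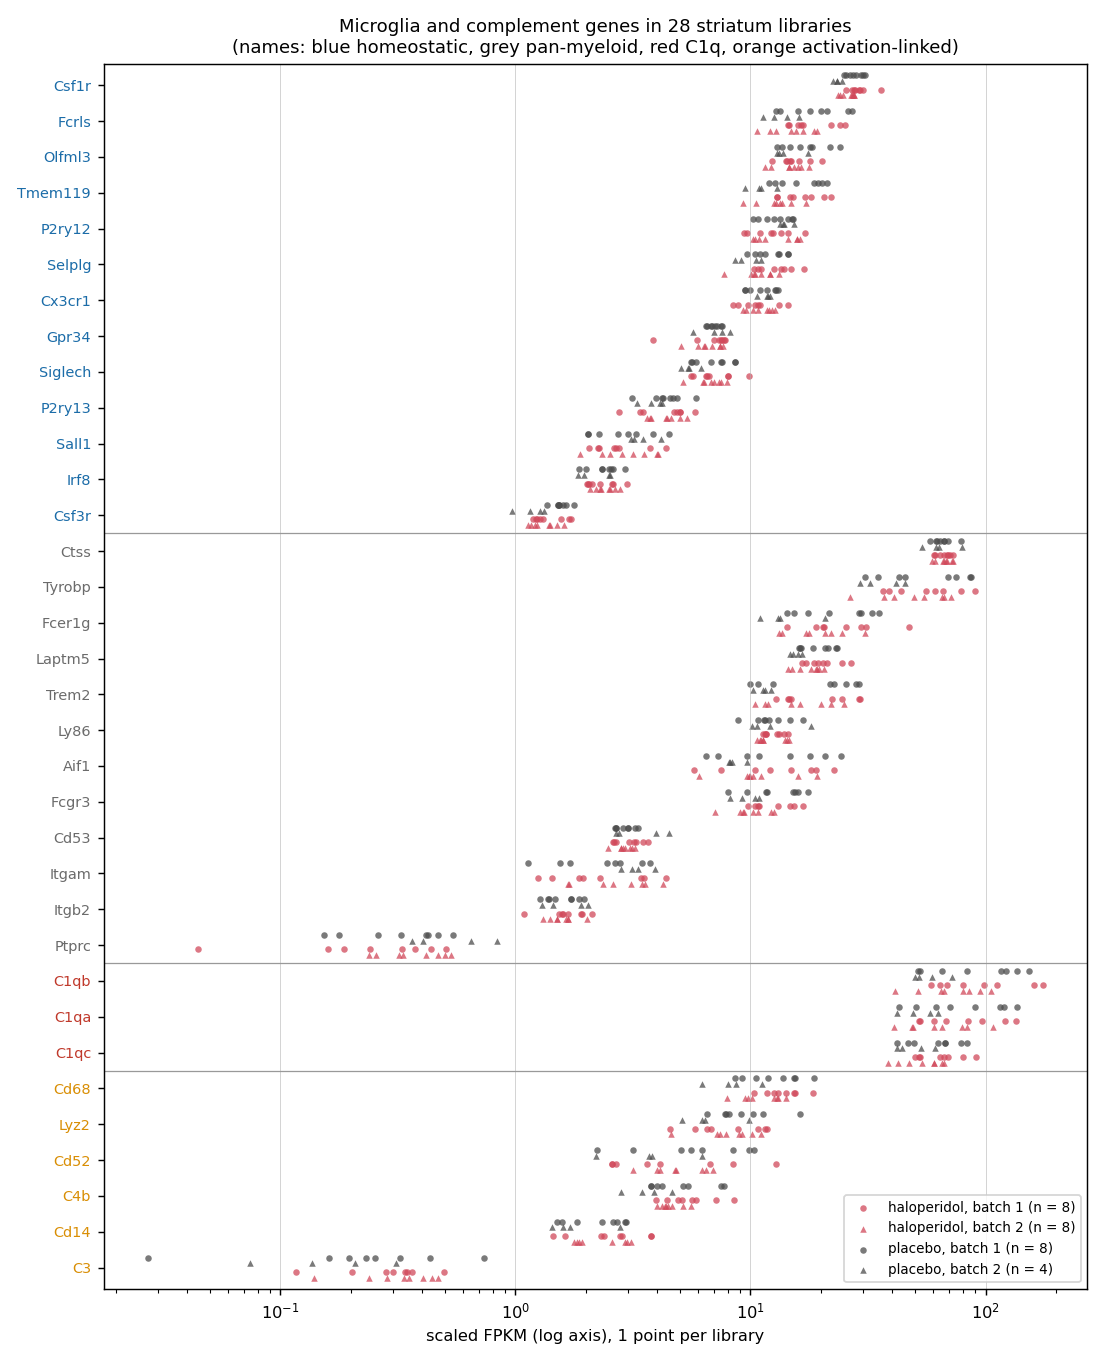
Scaled FPKM of all 34 genes, with 1 point per library on a log axis; circles are batch 1, triangles batch 2, red haloperidol and grey placebo. Haloperidol and placebo points overlap in every row, and rows such as Csf1r and Ctss are narrow where C1qa, C1qb, Trem2 and Aif1 are wide.

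The first comparison was of haloperidol with placebo. None of the 32 genes passed the threshold, an adjusted p of 0.05 by limma with treatment and batch as terms and Benjamini-Hochberg adjustment over all 12760 genes. The count was 0 of 32, beside 0.00784% of all genes, which is 1 gene. At an unadjusted p under 0.05 the count was also 0 of 32, beside 6.29% of all genes. Values above 0 were found in 22 of 32 genes, beside 50.9% of all genes. Adjusted p ran from 0.565 to 0.997. The 95% intervals of the log2 fold change all included 0, and their outer ends were -0.52, for Cd52, and 0.59, for Trem2. For single genes the intervals were as narrow as -0.004 to 0.19, for Csf1r, and -0.07 to 0.15, for Ctss.

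Csf1r, the receptor on which microglial survival depends, had the smallest p of the 32. It measured 25.5 to 35.9 scaled FPKM (median 28.4) in haloperidol and 25.02 to 30.7 (median 27.7) in placebo libraries of batch 1. In batch 2 it measured 23.6 to 27.7 (median 26.9) and 22.4 to 24.4 (median 23.4). The groups overlapped in both batches, and 12 of 16 haloperidol libraries lay above the placebo mean. The log2 fold change was 0.09 (SE 0.05, unadjusted p = 0.0583, limma adjusted p = 0.565).

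Among the other homeostatic genes the values went both ways. P2ry12, the purinergic receptor by which microglia sense nucleotides, ranged from 9.37 to 17.02 (median 12.4) under haloperidol and from 10.3 to 15.3 (median 13.6) under placebo, with a log2 fold change of -0.08 (SE 0.09). Cx3cr1, the receptor for the neuronal chemokine Cx3cl1, ranged from 8.43 to 14.5 (median 10.7) and from 9.44 to 13.1 (median 11.8), with -0.06 (SE 0.07). The groups overlapped for both genes. Tmem119, a membrane protein of microglia but not of most other macrophages, measured 14.8 ± 3.39 (SD, n = 16) and 14.8 ± 4.05 (SD, n = 12), with 0.09 (SE 0.10). Siglech, a sialic acid-binding lectin, and Selplg, the ligand of P-selectin, had values of 0.11 (SE 0.09, adjusted p = 0.565) and 0.10 (SE 0.08, adjusted p = 0.565). The transcription factors Sall1 and Irf8 were at -0.10 and 0.03, P2ry13 at 0.04, Gpr34 at -0.07, Olfml3 at -0.07, Fcrls at 0.04 and Csf3r at -0.02. Of the 13 homeostatic genes, 7 were above 0 and 6 below, and their median was 0.03, beside 0.004 over all genes.

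No gene shared by myeloid cells passed the threshold either. Laptm5, a lysosomal membrane protein, measured 19.1 ± 3.19 (SD, n = 16) under haloperidol and 18.2 ± 3.14 (SD, n = 12) under placebo. Its log2 value was 0.11 (SE 0.08, limma adjusted p = 0.565). Fcer1g, the common signalling chain of Fc receptors, measured 22.9 ± 8.66 against 21.1 ± 8.48, with 0.22 (SE 0.17, adjusted p = 0.565). Trem2, a lipid-sensing receptor, was at 0.22 (SE 0.18) and its adaptor Tyrobp at 0.19 (SE 0.18). The groups overlapped for each of these genes. Ctss was at 0.04 (SE 0.05), Aif1 at 0.13, Ly86 at 0.01, and the Fc receptor Fcgr3 at 0.001. The integrin subunits Itgam and Itgb2, which pair to form complement receptor 3, were at -0.08 and 0.01, and the tetraspanin Cd53 at -0.05. Of these 11 genes, 9 were above 0, with a median of 0.04.

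The 3 C1q genes lay within 18.7 kb on chromosome 4 (mm9, 136436061 to 136454759) and none passed the threshold. C1qa ranged from 40.7 to 135 (median 66.7) under haloperidol and from 42.1 to 136 (median 62.2) under placebo. Its log2 fold change was 0.10 (SE 0.19, 95% interval -0.28 to 0.49). The ranges were nearly the same, with the highest library in the placebo group. C1qb was at 0.16 (SE 0.19) and C1qc at 0.10 (SE 0.12).

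The activation-linked genes had the highest median of the groups, 0.19 over 5 tested genes, and none passed the threshold. Cd68, a lysosomal glycoprotein of phagocytes, ranged from 7.96 to 18.4 (median 12.7) under haloperidol and from 6.21 to 18.7 (median 10.9) under placebo. Its log2 fold change was 0.23 (SE 0.12, unadjusted p = 0.0631, limma adjusted p = 0.565). C4b, which encodes complement C4, ranged from 3.95 to 8.49 (median 4.78) and from 2.80 to 7.69 (median 4.09), with 0.20 (SE 0.11, unadjusted p = 0.0857, limma adjusted p = 0.565). The groups overlapped for both, and 11 of 16 haloperidol libraries were above the placebo mean for Cd68 and 8 of 16 for C4b. Cd14, a lipopolysaccharide co-receptor, was at 0.19 (SE 0.13, adjusted p = 0.565), while lysozyme, Lyz2, was at -0.03 and Cd52 at -0.03. C3 measured 0.319 ± 0.109 (SD, n = 16) and 0.257 ± 0.186 (SD, n = 12), too low to be tested.

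The medians of the homeostatic and the activation-linked genes were 0.03 and 0.19, and their difference was not tested. Within batch 1 the 2 medians were -0.03 and 0.12, and within batch 2 they were 0.12 and 0.29. The SD of the list median between libraries was 0.11 for the homeostatic and 0.34 for the activation-linked genes. The activation-linked median fell to 0.08 without C3 and C4b, over the 4 genes Cd68, Lyz2, Cd14 and Cd52. With Trem2, Tyrobp, Fcer1g, Fcgr3, Ctss and the C1q genes added it was 0.16, over 13 tested genes. All tested genes of the wider list but Ctss had a residual SD above the median of all genes.

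Within batch 1, 18 of 32 genes were above 0, beside 50.2% of all genes, and within batch 2 24 of 32, beside 50.9%. In batch 1, 0 of 32 genes passed the threshold and 0 had an unadjusted p under 0.05, beside 0.752% of all genes. Within batch 2, 0 of 32 passed the threshold, and 5 were higher at an unadjusted p under 0.05 (Csf1r, Siglech, Trem2, Cd68 and C4b), beside 7.75% of all genes. The values were 0.15 for Csf1r, 0.27 for Siglech, 0.47 for Trem2, 0.38 for Cd68 and 0.30 for C4b, each at an adjusted p of 0.282 by limma. In batch 1 the same genes were at 0.06, 0.01, 0.05, 0.12 and 0.14. The difference between batches was itself tested by a treatment-by-batch term, which called 0 of 32 genes and 0 of all genes, and at an unadjusted p under 0.05 found 0 of 32 beside 1.61% of all genes. In batch 2 the haloperidol and placebo libraries also differed in FPKM sum, 457641 ± 56082 (SD, n = 8) against 406928 ± 18307 (SD, n = 4), and in relative depth, 1.196 ± 0.275 against 0.733 ± 0.280. The part of these differences in the values was not tested within that batch.

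No tested transcript of these genes passed. The 32 tested genes carried 33 tested transcripts, and 0 passed the threshold for haloperidol (smallest limma adjusted p 0.615) beside 0.00653% of 15324 transcripts. Csf3r had no tested transcript, since its main forms averaged 0.752 and 0.594 FPKM. More than 1 transcript was listed for 5 of the 34 genes. Trem2 was mostly NM_031254, 82.9% of its FPKM on average, and Ctss mostly NM_021281, 93.6%. Itgam divided into NM_008401 at 66.6% and NM_001082960 at 33.4%, which differ by 3 bases in length, so their shares are uncertain.

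**Figure D2:**
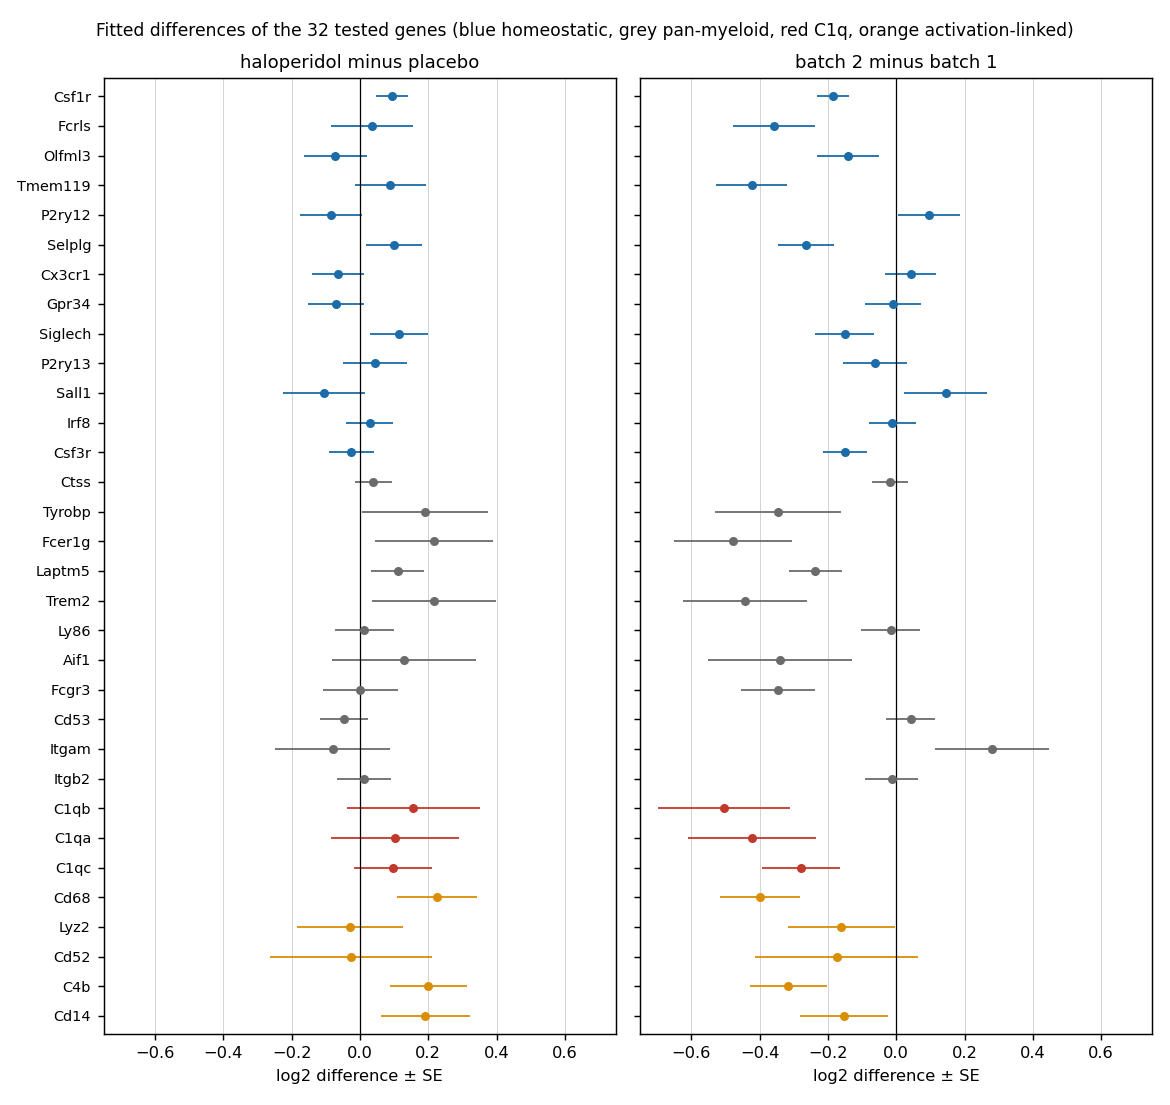
Fitted log2 difference ± SE of the 32 tested genes for haloperidol minus placebo (left) and batch 2 minus batch 1 (right), from a limma fit with treatment and batch on 28 libraries. On the left 22 values lie above 0 and none passes the threshold; on the right 27 lie below 0, with Tmem119 at -0.42 and Csf1r at -0.19 having the smallest p.

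The second comparison was that of the batches. Most of the 34 genes were lower in batch 2, but 0 of 32 passed the threshold, beside 0.408% of all genes. Of the 32 genes, 27 were below 0, beside 50.4% of all genes. At an unadjusted p under 0.05, 14 genes were lower and 0 were higher, beside 13.8% and 12.9% of all genes. The 14 were Csf1r, Tmem119, C1qa, C1qb, C1qc, Trem2, Fcer1g, Fcgr3, Fcrls, Laptm5, Csf3r, Selplg, Cd68 and C4b. The median over the homeostatic genes was -0.14 and over the activation-linked genes -0.17, beside -0.003 over all genes. The FPKM sum was also lower in batch 2, at 440737 ± 52119 (SD, n = 12) against 480065 ± 63733 (SD, n = 16).

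Tmem119 had the smallest p. In batch 1 it ranged from 12.9 to 21.9 (median 16.1) in haloperidol and from 12.0 to 21.2 (median 17.2) in placebo libraries. In batch 2 it ranged from 9.32 to 17.2 (median 13.1) and from 9.46 to 12.9 (median 10.9). The batches overlapped, with 11 of 12 libraries of batch 2 below the mean of batch 1. The means were 16.7 ± 3.36 (SD, n = 16) and 12.4 ± 2.29 (SD, n = 12), a log2 difference of -0.42 (SE 0.10, limma adjusted p = 0.0633). Csf1r measured 28.4 ± 2.65 and 25.2 ± 1.95, with all 12 libraries of batch 2 below the mean of batch 1 and a log2 difference of -0.19 (SE 0.05, adjusted p = 0.0696).

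The next genes in order of p were Cd68, at 13.4 ± 2.99 and 10.4 ± 2.46 (log2 difference -0.40, SE 0.12, limma adjusted p = 0.107), and Selplg, at 12.6 ± 2.01 and 10.53 ± 1.57 (-0.26, SE 0.08, adjusted p = 0.122). Fcgr3 followed at 12.9 ± 2.91 and 9.94 ± 1.59, a difference of -0.35 (SE 0.11, adjusted p = 0.124), with 12 of 12 libraries of batch 2 below the mean of batch 1. Laptm5 was at -0.24 (adjusted p = 0.137), the Fc receptor-like Fcrls at -0.36 (adjusted p = 0.142) and C4b, at 5.43 ± 1.52 and 4.29 ± 0.732, at -0.32 (SE 0.11, adjusted p = 0.157). Fcer1g was at -0.48 (adjusted p = 0.158). C1qb, C1qa and C1qc were at -0.50, -0.42 and -0.28, Trem2 at -0.44 and Tyrobp at -0.35. The size of the difference did not follow the p, since the widest genes, such as C1qb, had an SE of 0.19. The 5 genes above 0 were Cx3cr1 at 0.04, P2ry12 at 0.10, Cd53 at 0.04, Sall1 at 0.14 and Itgam at 0.28.

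Levels of many of these genes moved with the FPKM sum of the library. C1qa was lowest, at 40.7 scaled FPKM, in the library with the smallest sum, and its highest values, 135 in a haloperidol and 136 in a placebo library, lay near the upper end of the sums. Across the 28 libraries its log2 level correlated with the log2 sum at Pearson's r = 0.96 and Spearman's rho = 0.96 (permutation p = 1e-05 for each, the smallest that 100000 resamples give, and 1.68e-05 and 1.78e-05 after adjustment). Without the 2 libraries farthest from the median sum r was 0.96, and it was 0.96 within batch 1 and within batch 2. Tmem119 gave r = 0.90 (rho = 0.90), 0.96 within batch 1 and 0.91 within batch 2, and 0.88 without those 2 libraries. P2ry12 went the other way, at r = -0.85 (rho = -0.79), -0.86 and -0.83 within the batches and -0.85 without the 2 libraries. Each of these p was 1e-05 as well. For Ctss no relation was detected (r = 0.01, permutation p = 0.955).

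Over the 32 genes so tested, 22 had a positive relation at an adjusted p under 0.05 and 5 a negative one (Cx3cr1, P2ry12, P2ry13, Itgam and Sall1). For P2ry13 this held by r (-0.43, adjusted p = 0.0269) and not by rho (-0.37, adjusted p = 0.0666). The 5 without were Itgb2, Ctss, Gpr34, Cd53 and Csf3r. The sign was the same in both batches for 29 of 32 genes. A limma slope on the log2 sum, fitted beside treatment and batch on all genes, was positive past the threshold in 21 of 32 genes and negative in 5, where 40.9% and 41.1% of all genes were. The sum of FPKM is made of the values of all genes, and these 34 added up to 612 ± 142 scaled FPKM (SD, n = 28) beside a sum of 463210 ± 61287. It also moved with the RNA integrity number, at r = -0.73 (permutation p = 4.00e-05, rho = -0.76) over 28 libraries, -0.84 in batch 1, -0.58 in batch 2 and -0.69 without the 2 farthest libraries.

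**Figure D3:**
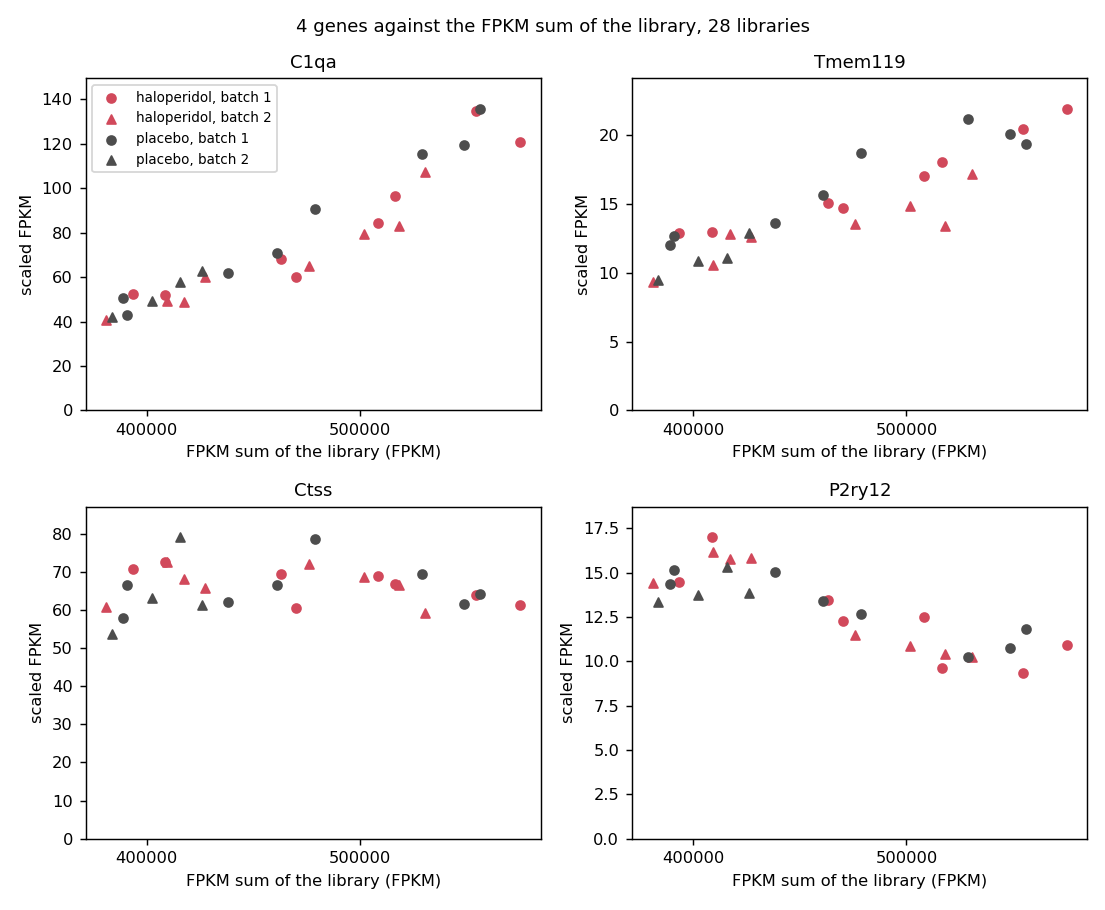
Scaled FPKM of C1qa, Tmem119, Ctss and P2ry12 against the FPKM sum of the library in FPKM, with 1 point per library; circles are batch 1, triangles batch 2, red haloperidol and grey placebo. C1qa (r = 0.96) and Tmem119 (r = 0.90) rise with the sum, P2ry12 (r = -0.85) falls and Ctss (r = 0.01) is flat; the batch 2 points of Tmem119 tend to lie under those of batch 1 at a like sum.

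These relations went with transcript length, across the 32 tested genes as across all tested genes. Among all tested genes the median partial r with the log2 sum, after treatment and batch, went from 0.89 in the shortest length bin (99 to 1072 bases) to -0.90 in the longest (6007 to 19827 bases). The 14 members with a main transcript under 1500 bases had a median of 0.87, and 13 of them were above 0. Those of 1500 to 3000 bases, 12 genes, had a median of 0.54, with 7 above 0. The 6 genes of 3000 bases or more had a median of -0.33, with 3 above 0 and a range of -0.93 to 0.67. Across the 32 genes the partial r correlated with log2 length at -0.61, and across all 12760 genes at -0.61. Genes share their libraries and are not independent, so these 2 values are descriptions.

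Some of the 34 genes stood off the length order. Ctss, at 1355 bases, had a partial r of -0.04, while the median of its length bin was 0.82. P2ry12 (2338 bases) was at -0.84 and P2ry13 (2528 bases) at -0.54, while Siglech (2397 bases) was at 0.84 and Tmem119 (2078 bases) at 0.94. The bin of the first 3 had a median of 0.19 and that of Tmem119 a median of 0.49. C4b, at 5393 bases, was at 0.60 and Csf1r, at 3875 bases, at 0.67, in bins with medians of -0.83 and -0.68. The homeostatic genes therefore lay on both sides, with 8 of 13 above 0. In activation-linked genes 5 of 5 were above 0, and in C1q genes 3 of 3. These groups also differed in length, with medians of 2528, 1057 and 1061 bases.

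**Figure D4:**
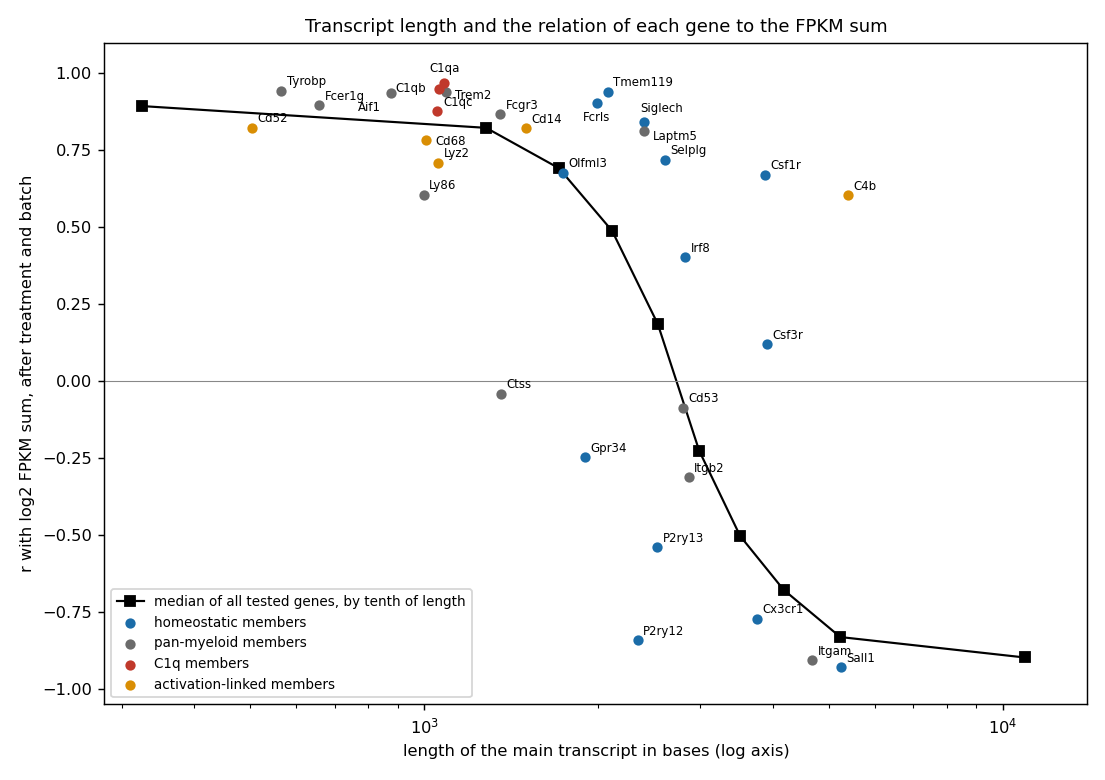
Partial r with the log2 FPKM sum, after treatment and batch, against the length of the main transcript in bases on a log axis, for the 32 tested genes (colours give their group). Black squares are the median of all tested genes in 10 length bins, at the middle of each bin on the log axis; they run from 0.89 to -0.90, and Ctss, P2ry12, Csf1r and C4b lie far from them.

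With the log2 FPKM sum added to the model, many of the haloperidol values moved past 0. The count was 0 of 32 genes past the threshold, beside 0.0549% of all genes, and 15 genes changed sign. C1qa went from 0.10 to -0.13 (SE 0.05, adjusted p = 0.539), Trem2 from 0.22 to -0.01, Tyrobp from 0.19 to -0.03 and Cd68 from 0.23 to 0.11. At an unadjusted p under 0.05, C1qa, Fcgr3 and Olfml3 were lower, 3 of 32 beside 4.16% of all genes. The activation-linked median went from 0.19 to 0.06 and the homeostatic median from 0.03 to 0.01. The residual SD of C1qa dropped from 0.51 to 0.13 and that of Tmem119 from 0.27 to 0.10.

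For the batch difference the same fit called Tmem119, 1 of 32 genes, beside 0.933% of all genes. Its log2 difference was -0.23 (adjusted p = 0.00295). Csf1r was at -0.13 (adjusted p = 0.0886), Cd68 at -0.22, Fcgr3 at -0.16 and Selplg at -0.15, none past the threshold. C1qa went from -0.42 to -0.06 and Tyrobp from -0.35 to 0.001. Rescaling to a common sum also called Tmem119 (-0.26, limma adjusted p = 0.0132), where 15 of all genes passed. With the RNA integrity number in the model Tmem119 was at -0.17 (adjusted p = 0.883), where 6 of all genes passed. The call therefore depended on the terms of the model. Tmem119 also passed in the first fit when any 1 of 6 libraries was left out (haloperidol replicates 13, 17, 23 and 27 and placebo replicates 8 and 16, adjusted p from 0.0275 to 0.0487), and Csf1r without haloperidol replicate 15 (0.0482) or 17 (0.0412).

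**Figure D5:**
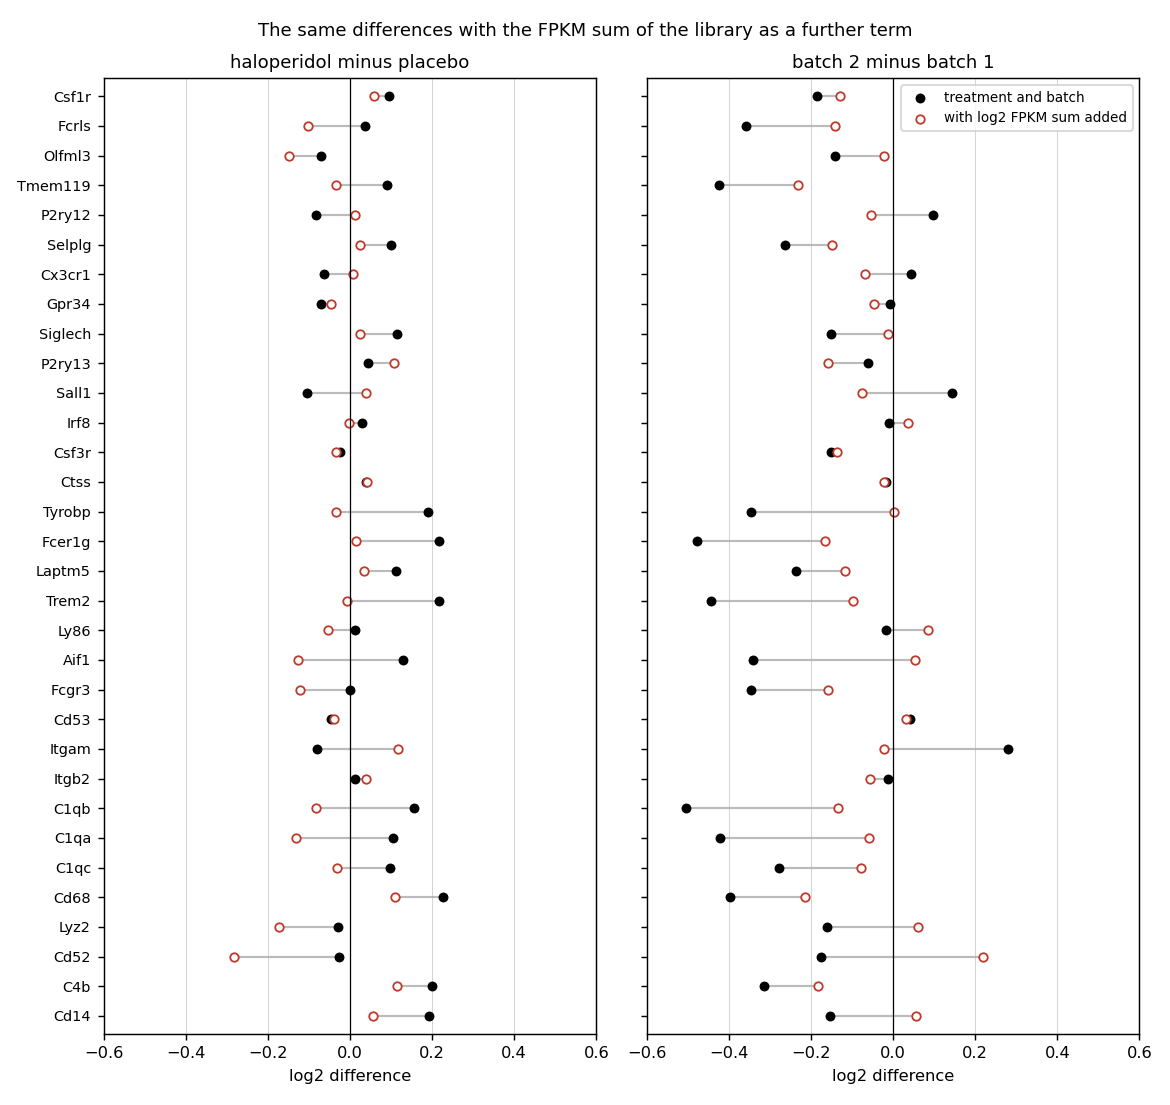
Fitted log2 differences of the 32 tested genes from the limma fit with treatment and batch (black) and with the log2 FPKM sum as a further term (red circles), for haloperidol minus placebo (left) and batch 2 minus batch 1 (right). On the left 15 genes cross 0; on the right C1qa moves from -0.42 to -0.06 and Tmem119 from -0.42 to -0.23.

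Most of the 12 pairs of genes tested varied together between mice. C1qb and C1qc gave r = 0.96 (rho = 0.97), C1qa and C1qb r = 0.97 (rho = 0.95), and C1qa and C1qc r = 0.92 (rho = 0.95) over 28 libraries, each with a permutation p of 1e-05 (2.00e-05 after adjustment over 12 pairs). Within batches r was 0.95 and 0.95, 0.98 and 0.93, and 0.91 and 0.88, and without the 2 libraries farthest from the median of the first gene 0.95, 0.96 and 0.89. After treatment, batch and the FPKM sum were fitted, r was 0.77, 0.61 and 0.44.

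Cx3cr1 and P2ry12, chemokine and purinergic receptors of the same cells, gave r = 0.87 (rho = 0.85, permutation p = 1e-05 for each, adjusted 2.00e-05), 0.90 and 0.85 within the batches, 0.83 without the 2 farthest libraries and 0.63 after the FPKM sum. C1qa and Cx3cr1 went against each other, at r = -0.69 (rho = -0.67), -0.78 and -0.54 within the batches and -0.64 without the 2 libraries (permutation p = 5.00e-05 for r and 0.00013 for rho, adjusted 7.50e-05 and 0.000195), and at 0.20 after the FPKM sum. Trem2 and its adaptor Tyrobp gave 0.92 (rho = 0.91), 0.94 and 0.87 within the batches and 0.91 without the 2 libraries (permutation p = 1e-05 for each, adjusted 2.00e-05), and 0.19 after the FPKM sum. For the integrin partners Itgam and Itgb2 no relation passed (r = 0.36, permutation p = 0.0633, and rho = 0.30, permutation p = 0.117). Csf1r and Cx3cr1, both homeostatic, had r = -0.40 (adjusted permutation p = 0.0369), rho = -0.31 (adjusted 0.117) and 0.24 after the FPKM sum. Cd68 and Lyz2, both activation-linked, had r = 0.51 (rho = 0.60), 0.65 and 0.25 within the batches and -0.06 after the FPKM sum. Fcrls and Siglech had r = 0.87, and 0.55 after the FPKM sum. C1qa and C4b had r = 0.71, and 0.40 after it. C3 and C4b gave r = 0.60 (rho = 0.52), 0.61 and 0.73 within the batches, 0.50 without the 2 libraries (permutation p = 0.00081 for r and 0.00437 for rho, adjusted 0.00108 and 0.00524), and 0.61 after the FPKM sum. Within placebo libraries r was 0.66 and within haloperidol libraries 0.42. C3 averaged 0.293 FPKM, with a median Cufflinks interval over the libraries of 44.9% in either direction, so this relation is uncertain. Among all 496 pairs of the 32 genes, r after treatment and batch had a median of 0.34 and ran from -0.90 to 0.97, with 78 pairs under -0.5. With the FPKM sum also fitted the median was 0.21 over a range of -0.42 to 0.80, with 0 pairs under -0.5. These values over pairs are a description, since the pairs share libraries and genes.

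No gene of the other lists passed the threshold for haloperidol. Of 40 other complement genes found, 16 were tested, 8 above 0 and 8 below, and 0 passed. Cd59a, an inhibitor of the membrane attack complex, was at 0.28 (SE 0.15). Of 29 genes of the disease-associated microglial state, 17 were tested and 15 were above 0, beside 50.9% of all genes. Their median was 0.13, beside 0.004 over all genes, and fell to 0.04 with the log2 FPKM sum in the model. Lipoprotein lipase, Lpl, was at 0.18 (SE 0.08) and the receptor kinase Axl at 0.13 (SE 0.06), each at an adjusted p of 0.565. Fth1 and Apoe of this list averaged 3974 and 1841 FPKM, where C1qb averaged 85.3, so its values need not come from microglia. Cst7, Itgax, Clec7a and Gpnmb, also of this list, averaged 0.159, 0.0498, 0.110 and 0.378 FPKM and were not tested. The cytokine genes Il1b and Tnf averaged 0.195 and 0.0377 FPKM and were not tested either. Among 8 tested ligands of microglial receptors, Cd47, the signal that restrains phagocytosis, was at -0.42 (SE 0.16, unadjusted p = 0.0157, limma adjusted p = 0.565), and 6 of 8 were below 0. Of 33 other microglial genes tested, 24 were above 0 with a median of 0.04, which was -0.01 with the log2 FPKM sum in the model. The fructose transporter Slc2a5 was at 0.19 (SE 0.07, limma adjusted p = 0.565).

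For the batch difference, Cfp, the complement activator properdin, was at -0.86 (limma adjusted p = 0.101). The microglial oxidase subunit Ncf1 was at -0.23 (adjusted p = 0.0696), and 0 genes of these 4 lists passed. Of the 16 other complement genes, 8 lay above 0 and 8 below, with a median of 0.06. At an unadjusted p under 0.05, 3 of the 16 were higher and 4 lower, beside 12.9% and 13.8% of all genes. Of the 8 ligands, 4 lay above 0 and 4 below, with a median of 0.07. Of the other microglial genes 25 of 33 were below 0 (median -0.10), and of the disease-associated genes 13 of 17 (median -0.11). For astrocyte genes the median was -0.10 and 11 of 17 lay below 0. The median was -0.09 for oligodendrocyte genes, of which 9 of 14 lay below 0, and 0 genes of either list passed. The summed level of 15 border macrophage and monocyte genes, of which 6 were tested, was 13.7 to 18.4 scaled FPKM in batch 1 and 12.1 to 16.0 in batch 2. Of 13 endothelial genes, 8 lay above 0, with a median of 0.06, and 1 passed the threshold, Ly6c1 at -0.51 (limma adjusted p = 0.0115). The 10 neutrophil genes summed to 0.609 to 18.1, highest in haloperidol replicate 19, and 0.555 to 5.58, and the 9 blood cell genes to 49.5 to 245 and 36.9 to 155. Their part in the batch difference of the microglial genes was not tested. Genes of the choroid plexus, which lines the ventricle beside the striatum, summed to between 21.5 and 9367 scaled FPKM over the 28 libraries. All 10 had a fitted value above 0 for haloperidol, with a median of 0.33, and 0 passed the threshold. In batch 2 their sum was 2756 ± 1355 (SD, n = 8) under haloperidol and 1184 ± 1067 (SD, n = 4) under placebo. Their part in the values of the microglial genes was not tested.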

How the data were processed

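RNA from the striatum of 28 mice was sequenced from libraries made with a TruSeq RNA kit, per the labels' protocols. Per the submitters' processing notes, the authors used TopHat2 2.0.6, Cufflinks and the mm9 build. The deposited values are FPKM with an interval for 30563 transcripts. They carry no read counts, so depth is known only relative to other libraries. The labels do not say whether counting used strand. No exon of the 34 genes shares bases with another gene.

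FPKM were summed per gene and divided by median-of-ratios factors. Genes averaging 1 FPKM or more were fitted as log2(scaled FPKM + 0.5) with limma 3.58.1 (trend) in R 4.3.3, on a design of treatment plus batch (2-sided tests), and adjusted by Benjamini-Hochberg over all 12760 genes at 0.05. Fold changes on this scale understate changes of low genes. Correlations used 100000 permutations (Python 3.11.15, SciPy 1.17.1). The gene test was also run on these values with treatment labels shuffled within batch and known folds put in. Its power is not reported here. Members, lists and tests were chosen with earlier results of these data known. All 34 genes are named. Full statistics are given for the 8 smallest p of each comparison and a fixed set of 10 genes. Up to 4 genes of each other list are named with a log2 difference per comparison. Promoter windows come from RefSeq (GRCm38.p6), a build other than that of the files. Alternatives were 2 pseudocounts, no filter, common-sum and quantile scaling, added or dropped terms, and each library left out.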

Additional observations from a re-analysis of the deposited data

Results flagged for a closer look

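In 136 groups of 4 or 8 libraries (34 genes in each treatment and batch), 2 held a library far from the others by Dixon's criterion, which chance meets in about 1 of 20 groups. Haloperidol replicate 19 of batch 1 had 35.9 scaled FPKM of Csf1r where the other 7 lay between 25.5 and 30.1, a gap of 0.556 of the range. Placebo replicate 32 of batch 2 had 9.67 scaled FPKM of Aif1 where the other 3 lay between 8.12 and 8.31, a gap of 0.874 of the range.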

How the results depend on the processing

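Among the 32 genes, limma called 0 for haloperidol under each alternative run that holds treatment, and 0 for the treatment-by-batch term under each alternative run for it. The batch count of 0 became 1 with common-sum scaling and 1 with the log2 FPKM sum in the model (Tmem119 in both), and ran from 0 to 2 when each library was left out. Over all genes the batch count of 52 ran from 17 to 203 when each library was left out. The homeostatic batch median of -0.14 moved to 0.024 with common-sum scaling, which shifted the median of all genes to -0.08 for haloperidol and 0.15 for batch. The homeostatic haloperidol median of 0.03 went to -0.052 with common-sum scaling and -0.023 with treatment alone, and ran from -0.0053 to 0.053 when each library was left out, and the activation-linked batch median of -0.17 went to 0.065 with the RNA integrity number and 0.056 with the log2 FPKM sum in the model. The homeostatic batch shift with common-sum scaling was larger than the SD of that list's median between libraries (0.11), and the haloperidol shifts of that list were smaller. The activation-linked shifts were smaller than that list's SD (0.34). Both SD are spreads of single libraries and not errors of a fitted difference, so a shift under the SD need not be small. With FPKM rescaled to a common sum the haloperidol value changed sign in 7 genes (P2ry13 -0.033, Itgb2 -0.056, Ctss -0.052, Fcgr3 -0.086, Fcrls -0.052, Irf8 -0.042 and Ly86 -0.074) and the batch value changed sign in 9 genes (P2ry13 0.086, Siglech 0.0080, Itgb2 0.11, Ctss 0.15, Gpr34 0.15, Irf8 0.13, Ly86 0.15, Olfml3 0.024 and Lyz2 2.9e-04). With the log2 FPKM sum in the model the haloperidol value changed sign in 15 genes (Cx3cr1 0.0074, P2ry12 0.013, Tmem119 -0.035, Aif1 -0.13, Itgam 0.12, C1qa -0.13, C1qb -0.083, C1qc -0.032, Trem2 -0.0065, Tyrobp -0.035, Fcgr3 -0.12, Fcrls -0.10, Irf8 -0.0023, Ly86 -0.053 and Sall1 0.038) and the batch value changed sign in 11 genes (Cx3cr1 -0.068, P2ry12 -0.053, Aif1 0.055, Itgam -0.022, Tyrobp 0.0014, Irf8 0.037, Ly86 0.085, Sall1 -0.075, Lyz2 0.061, Cd14 0.056 and Cd52 0.22). With quantile normalization the haloperidol value changed sign in 2 genes (Ctss -0.011 and Cd52 1.7e-04) and the batch value changed sign in 2 genes (Ctss 0.086 and Cd53 -0.026). With treatment alone in the model the haloperidol value changed sign in 2 genes (Fcgr3 -0.057 and Fcrls -0.023). With the RNA integrity number in the model the batch value changed sign in 15 genes (Cx3cr1 -0.084, P2ry12 -0.12, Siglech 0.011, Aif1 0.25, Itgam -0.13, C1qa 0.055, Trem2 0.0046, Tyrobp 0.033, Cd53 -0.036, Irf8 0.036, Ly86 0.051, Sall1 -0.13, Lyz2 0.065, Cd14 0.083 and Cd52 0.27). Without the 6 libraries of an RNA integrity number under 7.5, an alternative chosen after seeing the data, the haloperidol value changed sign in 2 genes (Csf3r 0.0037 and Cd52 0.032) and the batch value changed sign in 5 genes (Cx3cr1 -2.0e-04, Ctss 0.0025, Irf8 0.011, Ly86 0.0056 and Cd52 0.023). When each library was left out in turn, the haloperidol value changed sign in 8 genes, with these ranges: Cd52 -0.13 to 0.051, Cd53 -0.070 to 0.0075, Fcgr3 -0.052 to 0.040, Fcrls -0.0053 to 0.083, Irf8 -4.8e-04 to 0.053, Itgb2 -0.014 to 0.048, Ly86 -0.024 to 0.078 and Lyz2 -0.094 to 0.044. The batch value did so in 6 genes: Cd53 -0.011 to 0.066, Ctss -0.052 to 0.013, Gpr34 -0.069 to 0.024, Irf8 -0.027 to 0.019, Itgb2 -0.049 to 0.013 and Ly86 -0.080 to 0.014. Neither other pseudocounts nor no filter changed a sign in either comparison, nor did batch alone in the model for the batch values. No gene changed sign from a called value, and the cause was not tested. No paired analysis was possible because haloperidol and placebo libraries share no replicate number. Precision was limited by low levels and by the 4 placebo libraries of batch 2. The Cufflinks interval was taken for the main transcript of a gene, as a median over the libraries. It was 8.13% of the FPKM in either direction for Ctss and 57.3% for Ptprc.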
